A study of Homo sapiens with 2 samples.

Results

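The genes described here encode the glycophorins GYPB, GYPC and GYPE, the Rh-associated glycoprotein RHAG, and the membrane skeleton proteins ANK1, SPTB, EPB41 and EPB42. These 8 genes were listed by symbol and found by gene name in the FPKM tables (fragments per kilobase of gene length, scaled to library size), which hold 13924 genes, out of 61806 genes in the count table. They were measured in HEL, a human erythroleukemia cell line with wild-type genotype in the labels. HEL cells received either the vehicle, 0.5% DMSO, or L1, a derivative of 3,3′-diindolylmethane, at 1 µM for 24 h, and mRNA was sequenced from 1 library per condition. The study asked how L1 acts on these cells, and it considered genes of erythroid differentiation downstream of the ETS factor FLI1. The comparison below asks whether the transcripts of the red cell membrane differed between the L1 library and the DMSO library.

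The red cell membrane is held up by a skeleton of spectrin tetramers lying under the lipid bilayer. The skeleton is tied to the bilayer at ankyrin complexes, which hold the Rh proteins, glycophorins and band 3, and at junctional complexes, where the EPB41 protein joins spectrin, actin and glycophorin C. The genes of these proteins are switched on during erythroid maturation by factors such as GATA1 and KLF1, and inherited defects in several of them cause hereditary spherocytosis or elliptocytosis.

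The total count was 32556872 for DMSO and 27135647 for L1, and the 8 genes had between 517 and 11643 counts in a library. Log2 ratios of L1 over DMSO were computed from counts scaled by edgeR's TMM method. Beside each stands its 95% counting interval, the exact binomial (Clopper-Pearson) limits of the L1 share of the gene's counts, which cover counting error only. Since replicates are lacking, the spread between cultures is unknown, no test was run, and "higher" or "lower" compares 2 libraries. In a bulk culture, fewer erythroid cells and less RNA per cell cannot be told apart. As a check of the cell line, 9 erythroid markers were listed, with earlier results of these data known. All 9 had at least 10 counts in 1 library or more, and their summed level was 1250.0 CPM (counts scaled to the library total) under DMSO and 1866 under L1. Of these 9 markers, 3 were at least 2-fold higher in L1, all of them globin genes, and 0 at least 2-fold lower, with a median log2 ratio of 0.22. As background for this and the next marker lists, 7.12% of the 18123 genes with at least 10 counts in 1 library or more were at least 2-fold higher. Another 4.83% were at least 2-fold lower, and the median log2 ratio of these genes was -0.0040. The 4 globin genes among the 9 markers summed to 803 CPM under DMSO and 1389 under L1, and the other 5 markers to 447 and 477 CPM. HBG1, a fetal globin gene, had 5620 counts under DMSO and 16681 under L1 (log2 ratio 1.78), a value made uncertain by its near-identical copy HBG2, which had 20283 and 20372 (log2 ratio 0.22). HBE1, the embryonic beta-like globin gene, had 216 and 571 counts (log2 ratio 1.62). Of 9 megakaryocytic markers, 8 had at least 10 counts, with a summed level of 2035 CPM under DMSO and 1833 under L1, and PF4 was at 0 in both libraries. Their median log2 ratio was -0.66, with 7 of the 8 below 0, and GP1BB, a subunit of a platelet adhesion receptor, was the 1 past 2-fold, with 1177 counts under DMSO and 480 under L1 (log2 ratio -1.08). The 7 granulocytic and monocytic markers summed to 26.3 and 23.1 CPM, the 5 lymphoid markers to 3.47 and 2.21 CPM, and the 5 epithelial markers to 24.2 and 22.7 CPM, with LYZ, CD79A and KRT18 holding the most counts of each. MPO, ELANE, CD3D, CD3E, MS4A1, EPCAM and KRT19 were at 0 in both libraries. The part of these marker levels in the differences below was not tested.

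GYPB and GYPE are neighbours on chromosome 4 and members of 1 family of duplicated genes, so their sequences are shown before their values. The first 60 coding bases, spliced from 2 exons, of a GYPB transcript (ENST00000502664, from chr4:144001261-144019287) and a GYPE transcript (ENST00000358615, from chr4:143880487-143905507), both on the minus strand of GRCh38, differed at 2 bases, which are in capitals.
GYPB: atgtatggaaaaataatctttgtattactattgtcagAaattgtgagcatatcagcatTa
GYPE: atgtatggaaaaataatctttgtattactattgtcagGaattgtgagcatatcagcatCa
This stretch encodes the amino-terminal signal peptide and the residue after it, and its near-identity bears on how reads could be assigned to either gene. Of the 31-base words in GYPB transcripts, 23.1% are found in other genes as well, against 7.05% for GYPE. At 150 bases, the length of 1 sequenced read, the share was 0.0385% for GYPB, which is 1 of 2599 words, and 0 of 2000 words for GYPE.

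The promoters of both genes were alike as well. The 250 bases before the RefSeq start are given 5′ to 3′ for GYPB (chr4:144019346-144019595), GYPE (chr4:143905560-143905809) and, for contrast, the beta spectrin gene SPTB (chr14:64879908-64880157), all on the minus strand of GRCh38.p14. The letters GATAA, a form of the site that GATA factors recognise, are in capitals, and other forms are not marked.
GYPB: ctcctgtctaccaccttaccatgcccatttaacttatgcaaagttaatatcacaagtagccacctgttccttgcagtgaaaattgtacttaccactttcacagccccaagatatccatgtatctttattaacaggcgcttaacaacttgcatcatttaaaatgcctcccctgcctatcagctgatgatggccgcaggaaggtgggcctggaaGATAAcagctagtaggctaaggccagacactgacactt
GYPE: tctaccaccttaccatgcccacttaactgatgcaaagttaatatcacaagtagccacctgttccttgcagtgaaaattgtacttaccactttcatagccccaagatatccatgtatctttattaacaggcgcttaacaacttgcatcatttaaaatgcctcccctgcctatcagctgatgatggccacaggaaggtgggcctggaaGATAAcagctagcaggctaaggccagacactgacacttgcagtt
SPTB: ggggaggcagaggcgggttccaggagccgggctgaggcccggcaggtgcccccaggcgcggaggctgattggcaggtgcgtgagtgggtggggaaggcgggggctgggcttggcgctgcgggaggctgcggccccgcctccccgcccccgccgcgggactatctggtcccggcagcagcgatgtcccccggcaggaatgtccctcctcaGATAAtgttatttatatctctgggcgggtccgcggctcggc
Shifted by 6 bases, the GYPB and GYPE windows were identical at 239 of 244 positions (98.0%), and GATAA lay 38 bases before the GYPB start and 44 bases before the GYPE start. The SPTB window held GATAA 41 bases before its start. Promoter windows of 300 bases (250 before and 50 after the start) were taken from RefSeq for 7 of the 8 genes, 10 windows in all since some genes have more than 1, and ANK1 was not analysed here. GATAA on either strand was present in 6 of the 10 windows, or 5 of the 7 genes (GYPB, GYPE, RHAG, SPTB and EPB42), against 22.7% of all 35116 windows. The GYPB windows overlap and hold the same GATAA, and the GYPE site lies in the near-identical stretch. These windows are therefore not independent, and no enrichment was tested. CACCC, the core of the element bound by KLF1, was present in 6 of the 10 (in GYPB, GYPC, RHAG, SPTB and EPB42), against 59.9% of all windows. CCGGAA, a form of the site bound by ETS factors, was in none of the 10, against 17.2%. The shorter ETS core GGAA was not counted, and it does occur in the printed windows of GYPB, GYPE and SPTB. A match describes the letters only, and the genes that carry GATAA include members with log2 ratios above 0 and below 0.

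Among the glycophorins, GYPB and GYPE were higher in the L1 library and GYPC was lower. GYPB, which encodes glycophorin B, the carrier of the S and s blood group antigens, had 517 counts under DMSO and 959 under L1. Its FPKM was 8.53 under DMSO and 18.3 under L1. It showed the highest log2 ratio of the 8 genes, 1.10 (95% interval 0.95 to 1.26), a fold of 2.15, and the interval reached below 2-fold. GYPE, which is transcribed from the neighbouring copy, had 1425 counts under DMSO and 2160 under L1, with FPKM values of 22.3 and 39.2. Its log2 ratio was 0.81 (95% interval 0.72 to 0.91), so the whole interval lay below 2-fold and above 0. Both copies therefore had more counts in the smaller of the 2 libraries. With both genes summed the log2 ratio was 0.90. The FPKM of GYPB was 0.382 times that of GYPE in DMSO and 0.467 times in L1, and the log2 change of this ratio was 0.29 with a 95% counting interval from 0.11 to 0.48. GYPB spans chromosome 4 from 143996104 to 144019345 and GYPE from 143870867 to 143905563 in GENCODE release 29 (GRCh38).

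GYPC encodes glycophorins C and D, the anchors of the EPB41 protein at the junctional complex, and despite its name it does not belong to the chromosome 4 family. It lies on chromosome 2 from 126655933 to 126696670, and none of its 31-base words occurred in another gene. GYPC had 9953 counts under DMSO and 6882 under L1, and its FPKM was 86.8 under DMSO and 69.5 under L1. Its log2 ratio of -0.32 (95% interval -0.36 to -0.27) was the lowest of the 8 genes, with the DMSO level 1.25 times the L1 level. The 3 glycophorin genes thus differed in direction, and the intervals of GYPB, GYPE and GYPC did not reach 0.

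**Figure D1:**
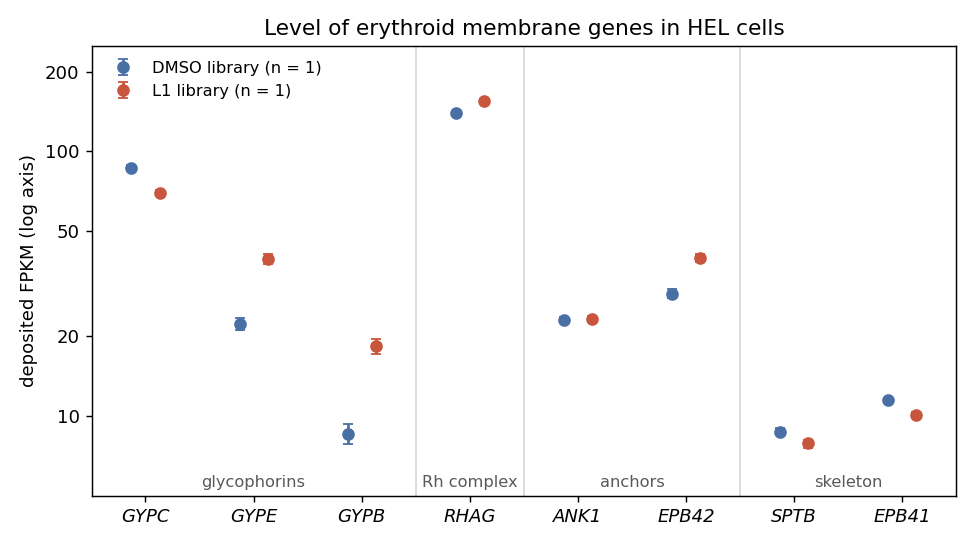
Deposited FPKM (log axis) of the 8 genes in the DMSO library and the L1 library, grouped by role, with 1 library per condition. Bars are exact 95% Poisson intervals of the counts and cover counting error only. RHAG was highest in both libraries, at 139 and 155, and GYPB moved from 8.53 to 18.3.

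RHAG, the glycoprotein that the Rh antigens need to reach the cell surface, was the most abundant of the 8 transcripts per length in both libraries. It had 11643 counts under DMSO and 11194 under L1, and its FPKM was 139 under DMSO and 155 under L1. The log2 ratio was 0.16 (95% interval 0.12 to 0.19), a fold of 1.11. RHAG lies on chromosome 6 from 49605158 to 49636884, and its FPKM stood at percentile 98.3 of all genes with a value under DMSO and 98.5 under L1. Among the 12365 genes with at least 100 counts in 1 library or more, 37.5% differed by as little as RHAG or less, so its ratio was within the middle of the range.

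The anchors of the ankyrin complex differed from each other. ANK1, ankyrin 1, which links beta spectrin to the bilayer, had 7938 counts under DMSO and 6872 under L1, with FPKM values of 23.1 and 23.2. Its log2 ratio was 0.01, and it was the only member whose 95% interval (-0.04 to 0.05) included 0. ANK1 lies on chromosome 8 from 41653220 to 41896762. EPB42, protein 4.2, a member of the transglutaminase family without enzyme activity that stabilises the ankyrin complex, had 2702 counts under DMSO and 3173 under L1. Its FPKM was 29.0 under DMSO and 39.5 under L1, and its log2 ratio was 0.44 (95% interval 0.37 to 0.52), a fold of 1.36. EPB42 lies on chromosome 15 from 43197227 to 43221125. Transcripts of another gene hold, on either strand, 8.58% of the 150-base words of EPB42 and 4.88% of those of ANK1. The effect of these shared words on the counts was not tested. SLC4A1, the gene of band 3 to which both proteins bind, had 0 counts under DMSO and 8 under L1 (exact 95% Poisson interval of the L1 count 3.45 to 15.8). It was singled out after its values were seen, and no fold is given at this depth.

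Both skeleton genes were slightly lower in the L1 library. SPTB, the beta chain of erythroid spectrin, had 4100 counts under DMSO and 3194 under L1, with FPKM values of 8.72 and 7.87. Its log2 ratio was -0.15 (95% interval -0.21 to -0.08). EPB41, whose protein joins spectrin to actin and to glycophorin C, had 7287 counts under DMSO and 5515 under L1. Its FPKM was 11.5 under DMSO and 10.1 under L1, and its log2 ratio was -0.19 (95% interval -0.24 to -0.14). Neither gene differed by as much as 1.25-fold, and both stood within the 25th to 75th percentile of all genes with at least 100 counts, -0.26 to 0.19. SPTB lies on chromosome 14 from 64746283 to 64879907 and EPB41 on chromosome 1 from 28887091 to 29120046. Exons of each overlap a coding gene on the opposite strand, and whether reads were counted by strand was not given in the sources used here. PLEKHG3, which overlaps SPTB, had 1976 counts under DMSO and 1184 under L1 (log2 ratio -0.53), and 20.8% of the 150-base words of SPTB occur in transcripts of another gene on either strand. TMEM200B, which overlaps EPB41, had 219 counts under DMSO and 270 under L1 (log2 ratio 0.52). Summed with its overlapping genes, SPTB had a log2 ratio of -0.26.

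**Figure D2:**
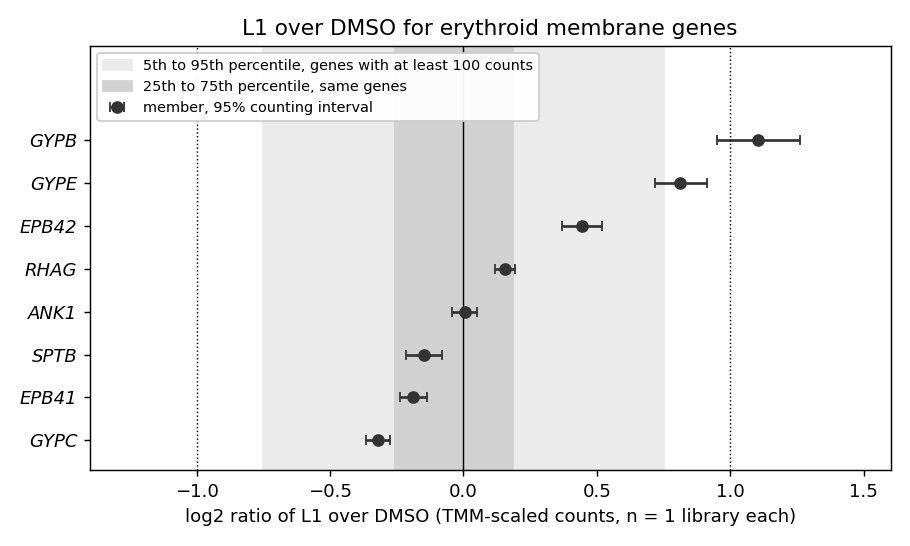
Log2 ratio of L1 over DMSO (TMM-scaled counts, 1 library each) for the 8 genes, with exact 95% counting intervals. Grey bands give the 5th to 95th and the 25th to 75th percentile of the 12365 genes with at least 100 counts, and dotted lines mark 2-fold. GYPB at 1.10 and GYPE at 0.81 lay above the 95th percentile of 0.75, and the other genes lay between -0.32 and 0.44.

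Over the whole group, 5 of the 8 genes were higher in the L1 library and 3 were lower by log2 ratio, and the interval excluded 0 for 4 of the former and all 3 of the latter. The interval covers counting error only, and at this depth a log2 ratio as small as -0.15 (SPTB) excluded 0. The share of all genes whose interval excludes 0 is not given here, so this count is not read as a trait of the group. The median log2 ratio, with a prior count of 2, was 0.08, against -0.0040 over the 18123 genes with at least 10 counts in 1 library or more and -0.03 over the 12365 with at least 100. GYPB was the only member at least 2-fold higher, 12.5% of the 8, where 7.12% of the 18123 genes were at least 2-fold higher, or 3.13% of the 12365 genes with at least 100 counts. None of the 8 was at least 2-fold lower, against 4.83% and 2.92% of the same genes. The share for the members rests on 1 gene and is not set apart from the background. Of the genes with at least 100 counts, 2.68% had a ratio at least as high as GYPB, 4.42% at least as high as GYPE and 10.6% at least as high as EPB42, and 20.1% had a ratio as low as GYPC or lower.

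**Figure D3:**
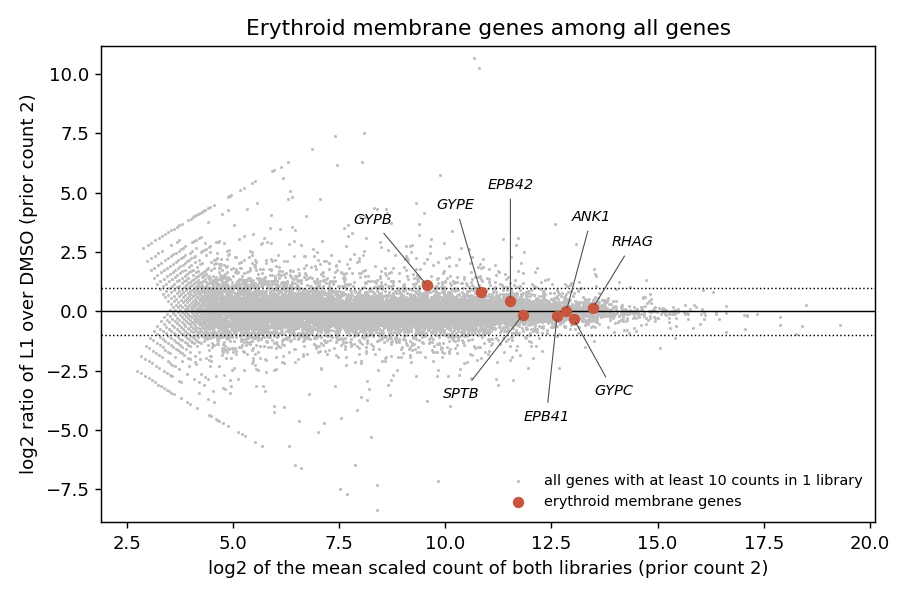
Log2 ratio of L1 over DMSO against the log2 mean scaled count of both libraries, both with a prior count of 2, for the 18123 genes with at least 10 counts in 1 library or more (grey) and the 8 genes (red). Dotted lines mark 2-fold. The 8 genes lay in the well-counted range, and GYPB was the only 1 past the line.

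The order of the levels per length changed between the libraries. In DMSO the order of FPKM from high to low was RHAG, GYPC, EPB42, ANK1, GYPE, EPB41, SPTB and GYPB. The counting intervals of ANK1 (22.6 to 23.6) and GYPE (21.2 to 23.5) overlapped there, as did those of SPTB (8.45 to 8.99) and GYPB (7.81 to 9.30). In L1 the order was RHAG, GYPC, EPB42, GYPE, ANK1, GYPB, EPB41 and SPTB, and the intervals of EPB42 (38.1 to 40.9) and GYPE (37.6 to 40.9) overlapped. GYPB moved from the last place to a level above both skeleton genes, and GYPE from beside ANK1 to beside EPB42. RHAG and GYPC together made up 68.7% of the summed FPKM of the 8 genes in DMSO and 61.9% in L1. These FPKM values divide by the length of all exons of a gene, which is 19993 bases for EPB41 while its longest coding transcript has 6016 bases. Per base of the longest coding transcript, RHAG and GYPC again led in both libraries and SPTB was last in both, but GYPB stood above GYPE, ANK1 and SPTB under DMSO and below only RHAG and GYPC under L1, since its longest coding transcript has 521 bases against 1872 bases of exons.

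A ratio of 2 genes within a library does not depend on how the libraries are scaled, so each member was also set against SPTB, a reference chosen after the levels were seen. SPTB itself had a log2 ratio of -0.15, so each fold below exceeds the gene's own TMM-scaled fold. Its counts also carry the overlap with PLEKHG3 described above. The FPKM ratio of GYPB to SPTB was 0.978 under DMSO and 2.33 under L1, a 2.38-fold change (95% counting interval 2.12 to 2.68). For GYPE the ratio changed 1.95-fold (1.79 to 2.11) and for EPB42 1.51-fold (1.41 to 1.62). The ratio of RHAG to SPTB was 16.0 under DMSO and 19.7 under L1, a 1.23-fold change (1.17 to 1.30). The ratio of ANK1 to SPTB, a pair that binds directly, changed 1.11-fold (1.05 to 1.18). EPB41 and SPTB kept a ratio of 1.32 under DMSO and 1.28 under L1, with a fold of 0.972 whose interval (0.916 to 1.03) included 1. GYPC to SPTB changed 0.888-fold (0.839 to 0.939). Relative to the spectrin gene, GYPB, GYPE, EPB42, RHAG and ANK1 were thus higher in the L1 library, GYPC was lower, and the difference of EPB41 was not detectable at this depth.

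Other genes of the red cell membrane were described with lists written from general knowledge. Over all 18123 genes with at least 10 counts in 1 library or more, the median log2 ratio was -0.0040. Of these, 7.12% were at least 2-fold higher in L1 and 4.83% at least 2-fold lower, and no list was tested against them. Of 13 partners of the membrane skeleton (adducins, tropomyosins, tropomodulins, actins and others), all with at least 10 counts, 6 were above 0 and 7 below, with a median log2 ratio of -0.01. TPM1, a tropomyosin that lies along the short actin filaments, was the only 1 past 2-fold, with 2710 counts under DMSO and 1121 under L1 (log2 ratio -1.06, 95% interval -1.16 to -0.96). Of 31 carriers of blood groups and transporters, 29 had enough counts, 19 of them above 0 and 10 below, with a median of 0.30. ABCG2, the transporter that carries the Junior blood group, was the only 1 past 2-fold among those with at least 100 counts, with 99 counts under DMSO and 209 under L1 (log2 ratio 1.29, 95% interval 0.94 to 1.65).

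**Figure D4:**
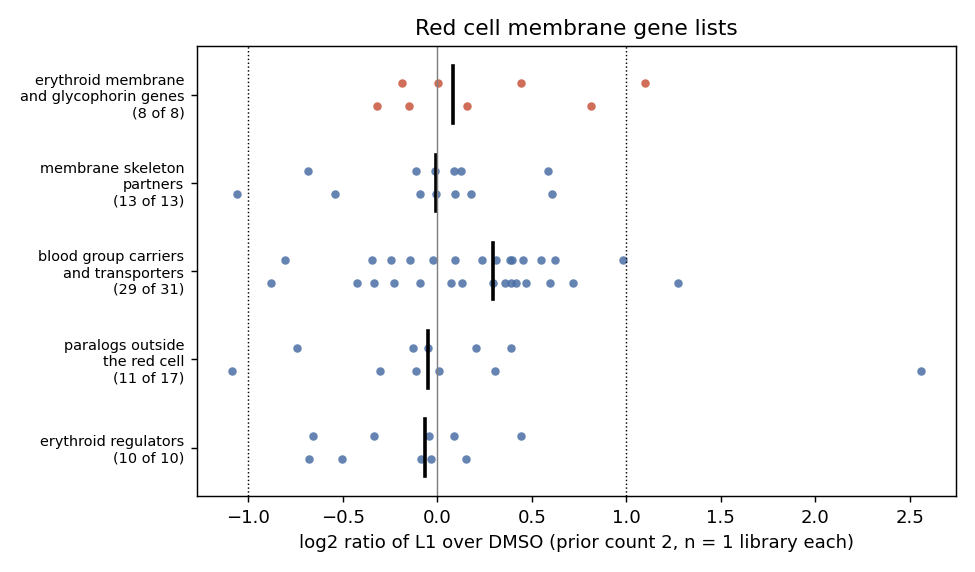
Log2 ratio of L1 over DMSO (prior count 2, 1 library each) for each gene with at least 10 counts in 1 library or more in 5 gene lists, with the number of listed genes kept in parentheses. Each point is a gene, black bars are list medians and dotted lines mark 2-fold. The medians lay between -0.07 for the erythroid regulators and 0.30 for the blood group carriers and transporters.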

How the data were processed

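RNA from HEL cells treated with DMSO or L1 was sequenced in 1 library per condition, with paired reads of 150 bases. The authors aligned cleaned reads with HISAT2 2.1.0 and deposited raw read counts per Ensembl gene, without normalization. The submitters' processing notes name hg38, fastp and StringTie, and the counting program, annotation and strand setting were not given in the sources used here. The authors also deposited FPKM values, which cover the 13924 genes above 1 CPM in both libraries and are proportional to the counts, with a library ratio of 1.16 for every gene, as TMM gives.

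Counts were scaled with edgeR 4.0.16 (TMM), with DESeq2 1.42.0 size factors, total counts and upper quartile scaling as alternatives, in R 4.3.3. Ratios, intervals and sequence features were computed in Python 3.11.15 with scipy 1.17.1. Summaries over genes used a prior count of 2 and genes with at least 10 counts in 1 library or more. No test was run. Positions and overlaps came from GENCODE release 29 (GRCh38), which held all 8 members and 58254 of the 61806 identifiers, and promoter sequences from RefSeq (GRCh38.p14). The scripts were tested on simulated libraries.

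The members and gene lists were chosen with earlier results of these data known. Genes named beside the members were those whose exons overlap a member and, in each list, genes with at least 100 counts past 2-fold or, where none was, the gene with the most counts. SLC4A1, HBG2, EPB41L1 and EPB41L3 were added after their values were seen. Some genes of the lists are not reported here by name.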

Additional observations from a re-analysis of the deposited data

How the results depend on the processing

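No paired analysis was possible because there is only 1 library a condition, and leaving out a library was not possible either. The ratio to SPTB, the background of genes with at least 100 counts and the levels per coding transcript were added after seeing the data. Of 56 values of the 8 genes under the alternatives, 50 stayed within the gene's counting interval, 6 moved out of it, and none of those whose interval excluded 0 changed sign. The 6 were GYPB summed with GYPE (0.90), GYPC (-0.27), RHAG (0.21) and ANK1 (0.05) with total counts, RHAG with upper quartile scaling (0.19), and SPTB summed with its overlapping genes (-0.26). ANK1, whose interval included 0, went to -0.03 with DESeq2 size factors. The 56 include values from the FPKM and from a prior count of 2, which keep the counts and the TMM ratio and only add a constant. They also include sums that could barely move. For EPB42, for ANK1 and for SPTB on its own strand, the overlapping genes had at most 6 counts in a library. That those values stayed within the interval says little about stability. The number of members at least 2-fold higher was 1 under all 3 other scalings. It was also 1 under all 3 other count minimums, which could not change it, since every member had at least 517 counts in each library. It was 2 at 1.5-fold, 0 at 3-fold and 0 where the whole interval had to pass 2-fold.

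Over all genes, 1290 passed 2-fold upward in L1 and 876 downward. The numbers were 2506 and 2065 at 1.5-fold, 566 and 345 at 3-fold, 3544 and 1811 with no minimum count, 387 and 361 with at least 100 counts, 694 and 491 where both libraries had 10 counts or more, and 547 and 350 with the whole interval past 2-fold. The other scalings left them within 1.5 times. The medians of the 5 lists stayed within the counting error of their genes under the scalings, the lower prior count and the higher minimum. The higher minimum removed no gene from the members, the skeleton partners or the regulators, so it could not move their medians. Depth limits SLC4A1, with 8 counts in all.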

Other observations

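Paralogs of the skeleton genes and of RHAG that serve cells other than red cells were described with a list of 17 genes, of which 11 had at least 10 counts in 1 library or more. Of these 11, 5 had a log2 ratio above 0 and 6 below, with a median of -0.05, against -0.0040 over the 18123 genes with at least 10 counts. SPTBN1, the beta spectrin of most other cells, had the most counts of the list, 10249 under DMSO and 8911 under L1, and its log2 ratio was 0.01 against -0.15 for SPTB. Its FPKM was 17.5 under DMSO and 17.6 under L1, so both beta spectrin genes were transcribed in HEL cells, and SPTBN1 was the higher of both per length. EPB41L3, a relative of EPB41, had 11 counts under DMSO and 65 under L1, a log2 ratio of 2.78 with a 95% counting interval from 1.84 to 3.85. EPB41L1, another relative, had 32 counts under DMSO and 12 under L1, a log2 ratio of -1.20 with an interval from -2.29 to -0.21. Both had under 100 counts in each library and were singled out after their values were seen.

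Of 10 erythroid regulators, 3 had a log2 ratio above 0 and 7 below, with a median of -0.07, and none was past 2-fold. TAL1, which has the most counts of the list and binds DNA together with GATA1, had 13361 counts under DMSO and 8138 under L1 (log2 ratio -0.50). The ratios of the list ran from -0.68 to 0.45. GATA1, KLF1 and EPOR are in this list and also among the erythroid markers, so both summaries share genes.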
